A study of Rattus norvegicus with 12 samples.

Results

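Macrophages and other leukocytes of the rat bladder were followed through 10 genes: Ptprc, Laptm5, Cd53, Itgb2, Cd68, Cd163, Mrc1, Csf1r, Gpnmb and Cx3cr1. Every non-control probe of the array whose RefSeq accession mapped to one of them was taken, which gave 12 probes of 30367, with both Ptprc and Csf1r covered by a pair of probes. All 10 genes passed the filter on dim probes and all 12 probes were well above background on every array, so the 10 genes were among 20425 tested. The arrays carried total RNA of the bladder body of male Fischer 344 rats, 1 animal per array. The study compared 3 groups of 4 animals: young rats of 6 months fed ad libitum (young fed), old rats of 25 to 28 months fed ad libitum (old fed), and old rats, also of 25 to 28 months, given food on 3 days a week since they were 6 weeks old (old restricted). The restricted rats ate about 40% less than the old fed rats, per the study's design text. The series title asks which inflammatory and oxidative changes accompany ageing in the bladder and whether caloric restriction prevents them.

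Macrophages live in the wall of the bladder, where they take up debris, dead cells and bacteria and call in other leukocytes. Some of the genes mark all leukocytes and some mark macrophages more narrowly, and the colony stimulating factor receptor Csf1r is the receptor on which most tissue macrophages depend for survival. In whole tissue, fewer cells of a type and less RNA per cell cannot be told apart.

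The level of a probe is given as log2 of its signal minus log2 of the 75th percentile of the array, so 0 is the brightness of that percentile. Levels of different probes cannot be compared, because probes differ in how strongly they bind, and only differences between animals are read. All 8 urothelial genes tested and all smooth muscle genes except Tagln were well above background on every array. Of the libraries, old fed replicate 2 stood away from its group: its score on the leading principal component of all genes tested was 51.9, against 7.27 to 13.7 for the rest. Young fed arrays lay in row 1 and old fed arrays in row 2 of 1 slide. The old restricted arrays lay in row 1 of another slide, read in another scan. Diet therefore cannot be told apart from slide or array row, nor can age from array row. Only old fed arrays lay in row 2. A difference of old fed rats from both other groups thus cannot be told apart from row. The mean of the negative control spots, on the same log2 scale, was -9.18 to -8.94 in young fed, -10.5 to -9.97 in old fed and -9.81 to -9.54 in old restricted rats. This background was lowest in the group in which most of the 10 genes were highest, and its part in the results was not tested.

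The promoters of the genes are shown because macrophage genes are classically bound by PU.1, an ETS family factor that recognises sites built around GAGGAA. Whether PU.1 had a part in the levels reported here was not tested. RefSeq promoter windows of GRCr8 were found for 9 of the 10 genes, and Itgb2 was not in the table. The 250 bases before each annotated start were searched for GAGGAA on both strands. No other motif was searched. The printed stretch ends where the annotated span of the gene begins, reads 5′ to 3′ on the strand of the gene, and has each match in capitals (GAGGAA, or TTCCTC where the match is on the other strand). The stretches are chr13:52259811-52259996 (minus strand) for Ptprc, chr5:148371630-148371879 (plus strand) for Laptm5, chr2:197087926-197088146 (minus strand) for Cd53, chr10:54882442-54882691 (minus strand) for Cd68 and chr4:158770524-158770750 (plus strand) for Cd163.
Ptprc: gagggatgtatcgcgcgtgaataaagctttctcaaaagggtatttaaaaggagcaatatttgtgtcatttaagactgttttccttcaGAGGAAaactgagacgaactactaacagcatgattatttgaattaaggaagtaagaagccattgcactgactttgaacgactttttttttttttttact
Laptm5: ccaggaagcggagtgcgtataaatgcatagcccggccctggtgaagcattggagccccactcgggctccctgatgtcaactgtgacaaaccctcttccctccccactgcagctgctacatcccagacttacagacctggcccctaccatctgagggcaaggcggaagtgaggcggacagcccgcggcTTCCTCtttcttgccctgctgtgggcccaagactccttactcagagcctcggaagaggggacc
Cd53: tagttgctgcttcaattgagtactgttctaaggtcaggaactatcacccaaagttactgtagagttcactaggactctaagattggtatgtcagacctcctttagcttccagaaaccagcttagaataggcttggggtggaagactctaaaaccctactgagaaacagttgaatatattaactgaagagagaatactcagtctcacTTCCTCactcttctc
Cd68: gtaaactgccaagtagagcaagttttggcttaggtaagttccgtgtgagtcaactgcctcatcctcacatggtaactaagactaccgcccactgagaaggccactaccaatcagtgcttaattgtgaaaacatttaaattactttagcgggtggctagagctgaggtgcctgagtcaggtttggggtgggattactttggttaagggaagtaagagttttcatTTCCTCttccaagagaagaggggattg
Cd163: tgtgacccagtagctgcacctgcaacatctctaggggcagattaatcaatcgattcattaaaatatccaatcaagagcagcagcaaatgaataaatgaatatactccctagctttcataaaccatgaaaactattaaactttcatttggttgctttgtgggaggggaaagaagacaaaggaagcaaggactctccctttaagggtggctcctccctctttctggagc

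The match began 163 bases before the start of Ptprc, 63 before that of Laptm5, 44 before that of Cd53 and 27 before that of Cd68. Gpnmb had a match at 181 bases, Mrc1 had matches at 180 and 35 bases, and Csf1r at 229 and 95 bases. These letters were not in the windows of Cd163 and Cx3cr1. For Csf1r only the first 23 bases of the window lay before the annotated span of the gene, and for Cx3cr1 0 bases did. The Csf1r match at 229 bases ran into that span, and the match at 95 bases lay inside it. In all, 7 of 9 windows held a match, and 23.3% of the 33469 windows of this length in the table did. A match is a run of letters and not a measured binding site.

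Among the genes of all leukocytes, Ptprc, Laptm5 and Itgb2 rose with age and Cd53 was higher in every old fed rat without passing the test. A gene is said to have risen or fallen where limma's Benjamini-Hochberg adjusted p over all genes tested was under 0.05. In old fed against young fed rats, 1.63% of all genes tested rose and 2.1% fell, and 4 of the 10 genes rose and 0 fell (limma). The fourth was Gpnmb. At an unadjusted p under 0.05, 8 of the 10 were higher and 1, Cx3cr1, was lower, beside 8.32% higher and 16.3% lower over all genes. In 5.69% of all genes every old fed rat lay above every young fed rat and in 9.37% every one lay below. Of the 10 genes, 6 lay above (Ptprc, Laptm5, Cd53, Itgb2, Cd68 and Gpnmb) and 0 below.

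Ptprc encodes CD45, the receptor tyrosine phosphatase found on all nucleated blood cells. Its level was -1.72, -1.53, -1.60 and -1.48 in young fed rats, -0.78, 0.09, -0.98 and -0.99 in old fed rats and -1.48, -1.60, -1.14 and -1.65 in old restricted rats, replicates 1 to 4 in turn. All old fed rats lay above all others, and old fed replicate 2 was the highest. The difference of old fed from young fed rats was 0.92 (SE 0.21, adjusted p = 0.038), or 1.89-fold. The difference of old restricted from old fed rats was -0.80, with a 95% interval of -1.25 to -0.35, and did not pass the test (adjusted p = 0.055). The other probe of Ptprc differed by 0.85 with age (adjusted p = 0.057) and by -0.63 with restriction (adjusted p = 0.15), with the same order of group means. In that probe the old groups overlapped. Old restricted replicate 3 read -3.73, above old fed replicates 3 (-3.85) and 4 (-3.80).

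Laptm5, a lysosomal membrane protein of blood cells, had levels of 2.28, 2.45, 2.37 and 2.58 in young fed rats, 3.15, 3.61, 2.84 and 2.97 in old fed rats and 2.53, 2.42, 2.86 and 2.47 in old restricted rats. Old restricted replicate 3 reached the lower end of the old fed range, and the other restricted rats lay within the young range. Laptm5 rose by 0.72 with age (SE 0.15, adjusted p = 0.032), and the difference with restriction was -0.57 (SE 0.15, adjusted p = 0.058). Itgb2 encodes the beta chain shared by the leukocyte integrins, through which leukocytes attach to vessel walls. Its levels were -3.59, -3.37, -3.30 and -3.25 in young fed, -2.28, -1.49, -2.89 and -2.83 in old fed and -3.19, -3.31, -3.04 and -3.29 in old restricted rats. Every old fed rat lay above every rat of the other groups, with replicates 1 and 2 well above the rest. Itgb2 rose 2.01-fold with age (log2 difference 1.005, SE 0.24, adjusted p = 0.046), and the difference with restriction was -0.84 (SE 0.24, adjusted p = 0.084).

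Cd53 is a tetraspanin of leukocyte membranes. Its levels were 0.29, 0.41, 0.34 and 0.43 in young fed rats, 1.11, 1.81, 0.79 and 0.81 in old fed rats and 0.17, 0.22, 0.63 and 0.25 in old restricted rats. The old fed rats lay above all the others, and young fed and old restricted rats overlapped. The age difference of 0.76 (SE 0.19) had an adjusted p of 0.0502. Cd53 fell with restriction by 0.81 on the log2 scale (SE 0.19, adjusted p = 0.042), which is 1.75-fold.

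**Figure D1:**
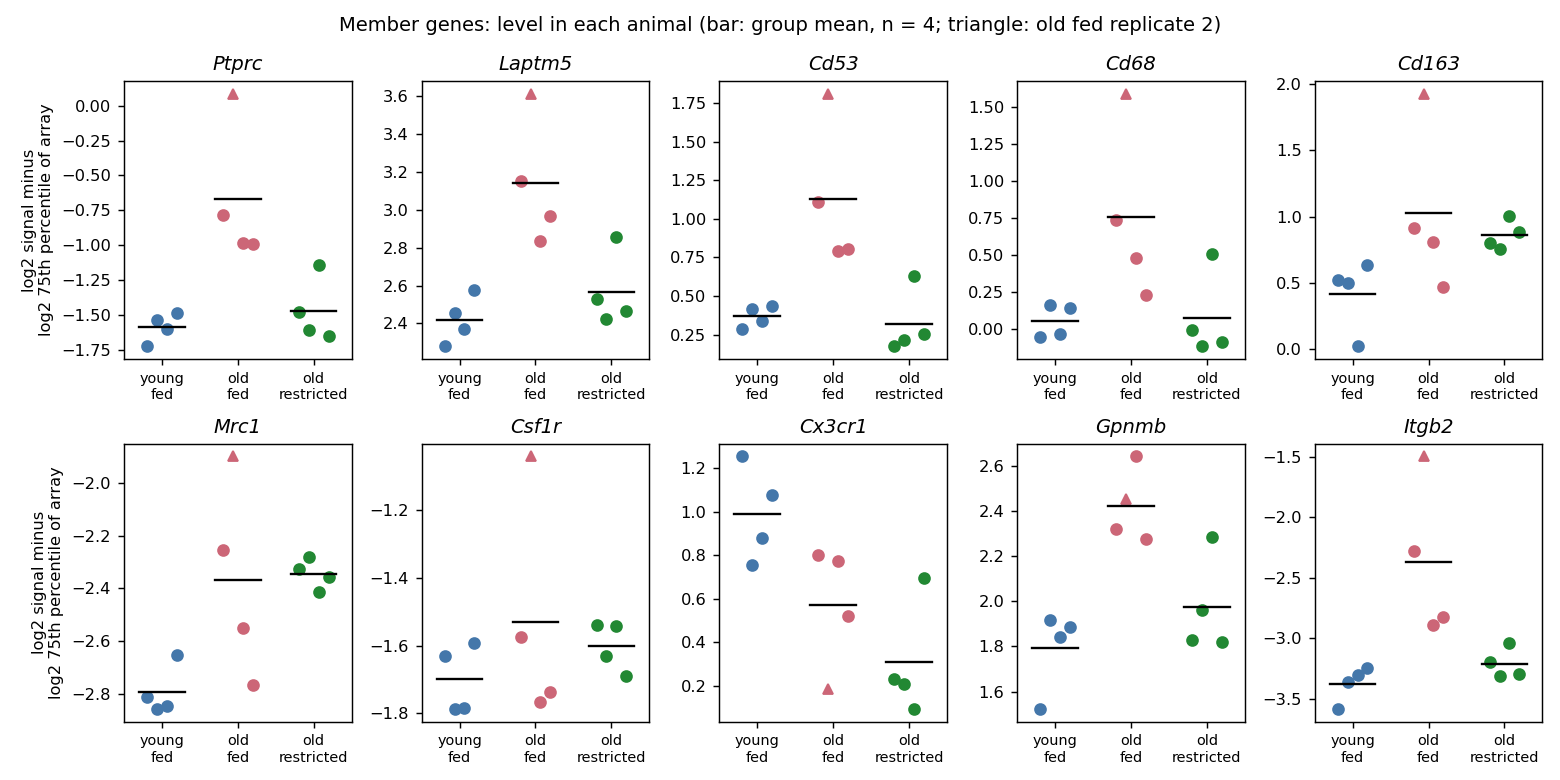
Level of each of the 10 genes (y axis, log2 signal minus log2 75th percentile of the array, a separate scale in each panel) in each animal of the 3 groups (x axis), with a bar at each mean of 4 animals and a triangle for old fed replicate 2. The old fed rats lie above all young fed rats in Ptprc, Laptm5, Cd53, Cd68, Gpnmb and Itgb2, and old fed replicate 2 is the highest old fed rat in 8 panels.

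Of the genes that mark macrophages more narrowly, Gpnmb rose with age, and Cd68, Cd163, Mrc1 and Csf1r did not pass the test. Gpnmb is a membrane glycoprotein of lysosome-rich phagocytes. Its levels were 1.52, 1.92, 1.84 and 1.89 in young fed rats, 2.32, 2.45, 2.64 and 2.28 in old fed rats and 1.83, 1.96, 2.29 and 1.82 in old restricted rats. Old restricted replicate 3 overlapped the lowest old fed rat. The rise was 0.63 (SE 0.12, adjusted p = 0.025), or 1.55-fold, and the difference with restriction was -0.45 (SE 0.12, adjusted p = 0.064).

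Cd68 is a glycoprotein of macrophage lysosomes. Its levels were -0.05, 0.16, -0.03 and 0.14 in young fed, 0.74, 1.59, 0.48 and 0.23 in old fed and -0.01, -0.12, 0.51 and -0.09 in old restricted rats. The old fed rats spanned the widest range and lay above all young fed rats, while old restricted replicate 3 lay inside the old fed range. The differences were 0.71 with age (SE 0.24, adjusted p = 0.11) and -0.69 with restriction (SE 0.24, adjusted p = 0.14). Cd163 takes up haemoglobin bound to haptoglobin. Its levels were 0.52, 0.50, 0.02 and 0.63 in young fed, 0.91, 1.93, 0.81 and 0.47 in old fed and 0.80, 0.76, 1.002 and 0.88 in old restricted rats. Old fed replicate 4 lay inside the young range, and all old restricted rats lay above all young fed rats. The differences were 0.61 with age (adjusted p = 0.16), -0.17 with restriction (adjusted p = 0.74) and 0.44 between old restricted and young fed rats (adjusted p = 0.28).

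Mrc1, the mannose receptor of macrophages, had levels of -2.81, -2.86, -2.85 and -2.65 in young fed rats, -2.26, -1.90, -2.55 and -2.77 in old fed rats and -2.33, -2.28, -2.41 and -2.36 in old restricted rats. The old restricted rats lay close together and above all young fed rats, whereas the old fed rats overlapped both. The difference of old restricted from old fed rats was 0.02 (95% interval -0.29 to 0.34, adjusted p = 0.95). The difference of old restricted from young fed rats was 0.45 (SE 0.14, adjusted p = 0.075), and that with age was 0.42 (SE 0.14, adjusted p = 0.11).

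The probes of Csf1r gave different calls. The probe with the higher mean signal, which stood for the gene, lay between -1.79 and -1.59 in young fed, -1.77 and -1.04 in old fed and -1.69 and -1.54 in old restricted rats. These ranges overlapped and no comparison passed the test, with differences of 0.17 with age (adjusted p = 0.45) and -0.07 with restriction (adjusted p = 0.80). The other probe, a single spot, read -2.41, -2.46, -2.43 and -2.41 in young fed, -2.53, -2.17, -2.47 and -2.49 in old fed and -2.68, -2.81, -2.93 and -2.83 in old restricted rats. There all old restricted rats lay below all others. In fits of every probe on its own, this probe fell by 0.40 with restriction (SE 0.08, adjusted p = 0.022) and by 0.39 in old restricted against young fed rats (SE 0.08, adjusted p = 0.016). In those fits 1.92% of 23089 probes fell with restriction and 5.78% fell in old restricted against young fed rats.

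Cx3cr1, the receptor of the chemokine fractalkine, carried by monocytes and resident macrophages, was the only one of the 10 with a negative difference with age. Its levels were 1.26, 0.75, 0.88 and 1.08 in young fed rats, 0.80, 0.18, 0.77 and 0.52 in old fed rats and 0.23, 0.21, 0.09 and 0.70 in old restricted rats. The old restricted rats lay below all young fed rats, and the old fed rats overlapped both groups. Cx3cr1 fell 1.61-fold in old restricted against young fed rats (log2 difference -0.68, SE 0.16, adjusted p = 0.027). The differences with age (-0.42, adjusted p = 0.14) and with restriction (-0.26, adjusted p = 0.39) did not pass the test. Old fed replicate 2, the highest of its group in 8 genes, was the lowest in Cx3cr1.

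With restriction, 1 of the 10 genes fell (Cd53) and 0 rose (limma), beside 2.02% of all genes that fell and 1.62% that rose. At an unadjusted p under 0.05, 6 of the 10 were lower and 0 higher, beside 9.16% and 11.5% of all genes. All old restricted rats lay below all old fed rats in 3 of the 10 genes (Ptprc, Cd53 and Itgb2), beside 6.05% of all genes. They lay above all old fed rats in 0 of the 10, beside 8.64% of all genes. In the other probe of Ptprc the old groups overlapped. Between old restricted and young fed rats 1 of the 10 genes fell (Cx3cr1) and 0 rose (limma), beside 5.99% and 3.19% of all genes. At an unadjusted p under 0.05, 1 of the 10 was lower (Cx3cr1) and 1 higher (Mrc1), shares close to the 16% and 10.1% of all genes. There the groups did not overlap for 1 gene below (Cx3cr1; 10.8% of all genes) and 2 above (Cd163 and Mrc1; 7.16% of all genes). The median log2 difference over the 10 genes was 0.67 with age, -0.51 with restriction and 0.13 between old restricted and young fed rats, and over all genes tested it was -0.05, 0.02 and -0.01. The comparisons of age and of restriction share the old fed rats, so that a high reading in these raises the difference with age and lowers that with restriction.

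**Figure D2:**
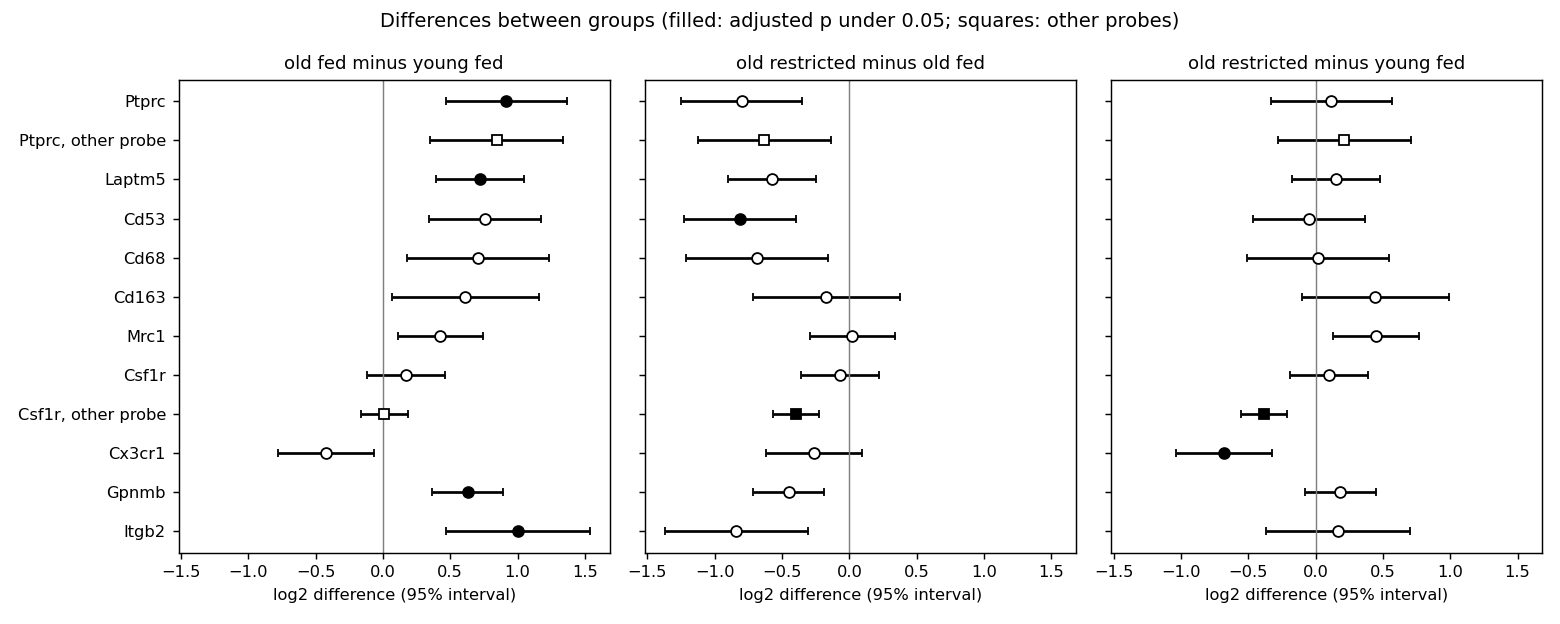
Log2 differences (x axis, with 95% intervals) of the 10 genes and of the other probes of Ptprc and Csf1r (y axis) in the 3 comparisons, with filled symbols where the adjusted p was under 0.05 and squares for the other probes. Filled symbols stand at Ptprc, Laptm5, Gpnmb and Itgb2 with age, at Cd53 and the other Csf1r probe with restriction, and at Cx3cr1 and the other Csf1r probe for old restricted against young fed rats.

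The size of most differences moved with old fed replicate 2. Without it the age difference was 0.67 in place of 0.92 for Ptprc, 0.71 in place of 1.005 for Itgb2, 0.43 in place of 0.71 for Cd68, 0.31 in place of 0.61 for Cd163 and 0.01 in place of 0.17 for Csf1r. Gpnmb was at 0.62 without it and at 0.63 with it. Without that animal 4 genes still passed with age, with Cd53 called and Gpnmb not called, and Ptprc and Cd53 fell with restriction. Over all genes tested 192 then rose with age and 259 fell with restriction. Of the 10 genes, 0 rose with age without young fed replicate 1, 2 or 3, and 6 did without old fed replicate 4. The count was 2 without young fed replicate 4, old fed replicate 3 or old restricted replicate 1, 2 or 4. Over all genes tested 332 rose with age in the fit of all 12 animals. Without young fed replicates 1, 2 and 3 in turn, 96, 73 and 115 did. In the fits with a count of 2, 159 to 240 did, and without old fed replicate 4, 383 did. The fall of Cd53 with restriction passed in 5 of 12 fits that each left out 1 animal, with adjusted p between 0.026 and 0.11, and that of Cx3cr1 against young fed rats in 7 of 12, with adjusted p between 0.015 and 0.081. In those fits the age differences of Ptprc, Laptm5, Gpnmb and Itgb2 stayed above 0, between 0.54 and 1.18. Fitted on the groups of young fed and old fed rats alone, 0 of the 10 genes passed with age (limma). The smallest adjusted p among them was 0.053, for Gpnmb. Over all genes tested 94 passed with age in that fit.

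**Figure D3:**
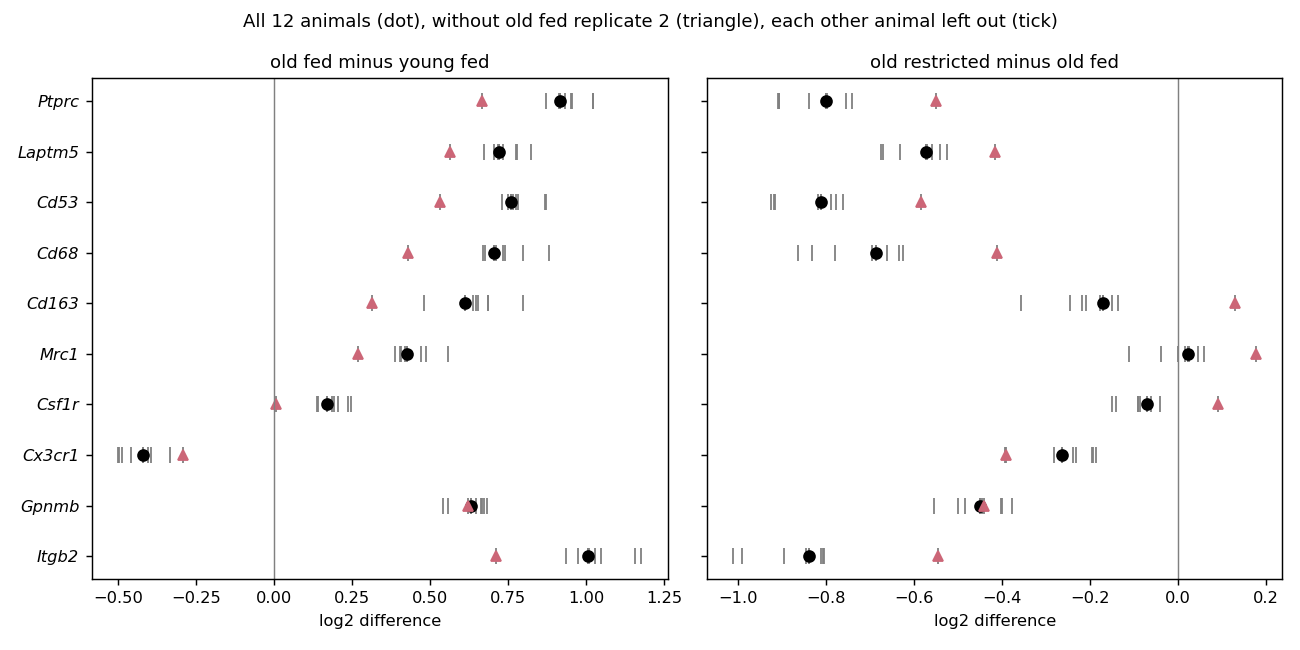
Log2 differences of the 10 genes (x axis) with age on the left and with restriction on the right, from all 12 animals (dots), without old fed replicate 2 (triangles) and without each other animal (ticks). With age the triangle lies nearer to 0 than the dot in every panel row, as in Ptprc (0.67 against 0.92), and the shift is smallest in Gpnmb (0.62 against 0.63).

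Across the 12 arrays, with each profile centred on its own mean, the closest pairs among the 10 genes were Ptprc with Cd53 at a root mean square distance of 0.10 and Cd53 with Cd68 at 0.11 (log2). The farthest pair was Cx3cr1 with Itgb2 at 0.77. Of the other named genes tested, the nearest to Ptprc were Coro1a (0.089), B4galnt1 (0.090), Rac2 (0.098), Gimap7 (0.10) and Ly86 (0.11). The nearest to Cd163 were Clec10a (0.12), C1qc (0.14), Asgr2 (0.16), Ctss (0.16) and Zc3h12a (0.16). Old fed replicate 2 takes part in each of these distances.

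Of the ligands and partners of these proteins, 12 of 14 were tested and 1 rose with age. This was Lck, the kinase that CD45 activates in T cells, by 0.91 (SE 0.21, adjusted p = 0.040). Its difference with restriction was -0.62 (adjusted p = 0.12). The growth factors of the Csf1r receptor did not pass with age, with Csf1 at 0.30 (adjusted p = 0.084) and Il34 at 0.02 (adjusted p = 0.90). With restriction Il34 differed by -0.30 (adjusted p = 0.11), all old restricted rats below all old fed rats, and Csf1 by -0.07 (adjusted p = 0.71). Cx3cl1, the ligand of Cx3cr1, differed by 0.45 with age (adjusted p = 0.14) and by -0.12 with restriction (adjusted p = 0.74).

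Itgam, which pairs with Itgb2 in the complement receptor of phagocytes, differed by 0.38 with age and -0.38 with restriction (adjusted p = 0.39 and 0.44). Itgad, another alpha chain, differed by 0.55 with age and -1.19 with restriction (adjusted p = 0.61 and 0.30). Icam1, the endothelial ligand of these integrins, differed by 0.29 with age and -0.35 with restriction (adjusted p = 0.12 and 0.092), and Icam2 by 0.08 and -0.26 (adjusted p = 0.70 and 0.25). None of these adhesion genes passed the test. The signalling adaptors Tyrobp and Fcer1g, which carry activating motifs for receptors of myeloid cells, differed by 0.64 and 0.74 with age (adjusted p = 0.10 and 0.084) and by -0.70 and -0.69 with restriction (adjusted p = 0.10 and 0.12). Hp, the haptoglobin that Cd163 clears, differed by 0.38 with age and -0.41 with restriction (adjusted p = 0.23 and 0.25). Sdc4, a heparan sulphate proteoglycan to which Gpnmb binds, rose with restriction by 0.22 (SE 0.04, adjusted p = 0.020) and in old restricted against young fed rats by 0.16 (SE 0.04, adjusted p = 0.043), and differed by -0.06 with age (adjusted p = 0.39). Between old restricted and young fed rats none of the other 11 passed.

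Of 40 further macrophage genes 30 were tested. With age 26 of the 30 had a difference above 0, with a median of 0.38, and 1 rose: Apoe, a lipid carrier that macrophages secrete, by 0.51 (SE 0.10, adjusted p = 0.026). With restriction 27 of the 30 had a difference below 0, with a median of -0.35, and 0 passed the test (limma; 0 higher and 7 lower where the unadjusted p was under 0.05). Of 26 further leukocyte genes 18 were tested, with medians of 0.49 with age and -0.52 with restriction. Coro1a, an actin-binding protein, and Rac2, a small GTPase of blood cells, rose with age by 0.89 and 1.03 (adjusted p = 0.041 and 0.038). With restriction 4 fell: Cytip by 0.79, Lcp2 by 0.54, Rac2 by 0.97 and Coro1a by 0.83 on the log2 scale (adjusted p = 0.017, 0.032, 0.043 and 0.049). Cytip and Lcp2 are adaptors of leukocyte adhesion and antigen receptor signalling.

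Markers of other cells moved in the same comparisons. Of 25 T and NK cell genes 21 were tested, and with age 12 rose and 0 fell, with a median of 1.21. Cd7, Cd2 and Cd6, surface proteins of T cells, rose by 1.02, 1.21 and 1.29 (adjusted p = 0.0028, 0.0069 and 0.0069). With restriction 5 of the 21 fell, with a median of -0.82. The mean level of these 21 genes was -4.27 to -3.76 in young fed, -3.07 to -1.98 in old fed and -3.98 to -3.36 in old restricted rats. Of 7 B cell genes tested 3 rose with age, and the mean level of the 7 was -6.14 to -5.83, -5.29 to -4.76 and -6.01 to -5.06 in the same groups. Of 15 granulocyte and mast cell genes 0 passed with age (limma; 5 higher and 0 lower where the unadjusted p was under 0.05). With restriction their median was -0.72, 14 of the 15 had a difference below 0, and 10 were lower and 0 higher before adjustment. Of these Cxcr2 fell by 1.13 (adjusted p = 0.033), with a signal well above background on 3 of 4 old restricted arrays. The mean level of the 15 was -4.74 to -4.08 in young fed, -4.69 to -3.49 in old fed and -5.08 to -4.77 in old restricted rats. Lymphocytes also carry Ptprc, Laptm5, Cd53 and Itgb2, and the part of these other cells in the differences of the 10 genes was not tested.

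Among the cells of the bladder wall, smooth muscle genes had a median of -0.32 with age, and 3 of 10 fell, Myh11, Myl9 and Synm, by 0.25, 0.41 and 0.30 (adjusted p = 0.036, 0.036 and 0.037). The mean level of the 10 was 4.95 to 5.04 in young fed, 3.75 to 4.83 in old fed and 4.53 to 4.76 in old restricted rats. The low end of the old fed range came from Tagln, which read -1.97 and was not well above background in old fed replicate 4, against 5.82 to 6.24 in the other old fed rats. Without Tagln the mean level of the other 9 was 4.795 to 4.90 in young fed, 4.37 to 4.67 in old fed and 4.38 to 4.60 in old restricted rats. With quantile scaling 0 of the 10 smooth muscle genes and 0 of 9 fibroblast genes fell with age (limma), with medians of -0.27 and -0.20. Among 8 urothelial genes Krt5, a keratin of basal cells, rose with age by 0.66 (adjusted p = 0.036) and in old restricted against young fed rats by 1.01 (adjusted p = 0.0032). The mean level of the 8 was 4.31 to 4.53, 4.05 to 4.51 and 4.53 to 4.60 in young fed, old fed and old restricted rats. Among 9 fibroblast genes Col1a2 and Cd34 fell with age by 0.26 and 0.58 (adjusted p = 0.034 and 0.045), with a mean level of 2.30 to 2.65, 2.05 to 2.45 and 2.30 to 2.36. Among 8 endothelial genes Pecam1 fell with restriction by 0.36 (adjusted p = 0.047), and 0 passed with age (limma; 0 higher and 2 lower where the unadjusted p was under 0.05), with a mean level of -1.08 to -0.88, -1.04 to -0.93 and -1.19 to -1.01. Of 6 adipocyte genes 0 passed in any comparison (limma; 1 higher and 1 lower with age, 0 higher and 4 lower with restriction, 0 higher and 2 lower in old restricted against young fed rats where the unadjusted p was under 0.05), with a mean level of -0.96 to -0.46, -0.54 to -0.36 and -2.31 to -0.54. The part of the tissue's makeup in the differences of the macrophage and leukocyte genes was not tested.

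Without old fed replicate 2 the median age difference was 0.48 for the 10 genes, 0.17 for the other macrophage genes, 0.26 for the other leukocyte genes and 1.01 for the T and NK cell genes. With restriction these medians were -0.41, -0.11, -0.33 and -0.74. Without that animal 3 other macrophage genes, 1 other leukocyte gene and 16 T and NK cell genes rose with age, in place of 1, 2 and 12. No B cell, smooth muscle, urothelial or fibroblast gene passed with age then, with medians of 0.74, -0.29, -0.07 and -0.25, nor did a granulocyte or endothelial gene with restriction, with medians of -0.51 and -0.09. With normexp background correction 1 B cell gene rose with age in place of 3, with a median of 0.10, and 0 ligands or partners did in place of 1 (limma).

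**Figure D4:**
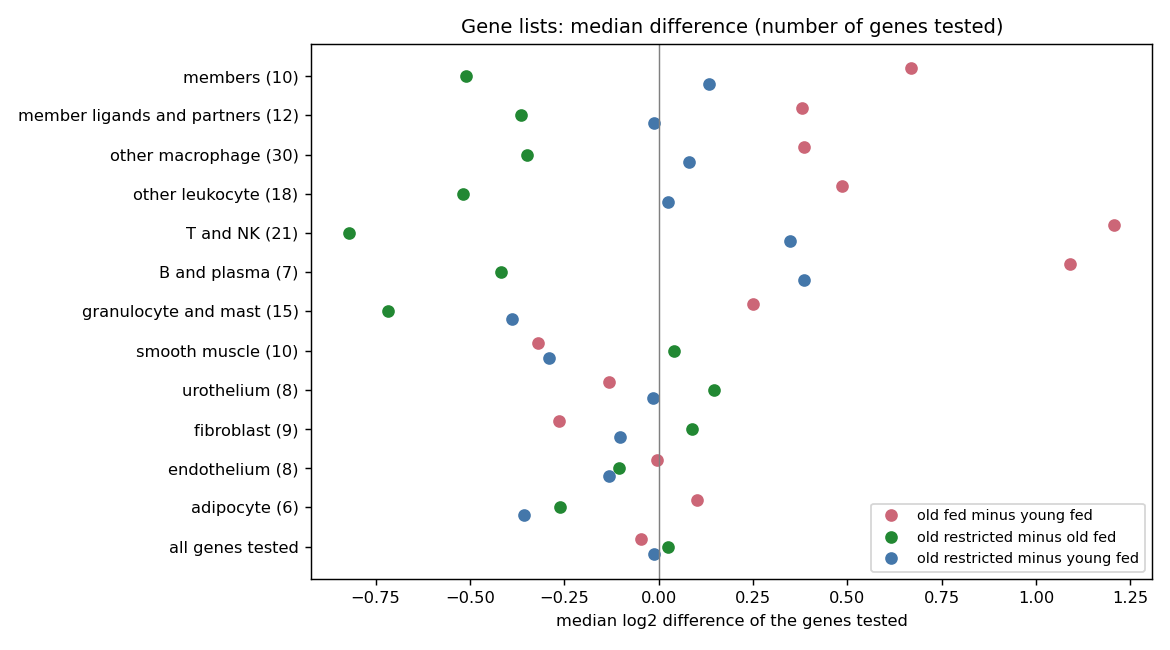
Median log2 difference (x axis) of the tested genes in each list and over all genes tested (y axis, with the number of genes) in the 3 comparisons. The 10 genes ("members") lie at 0.67 with age, and the T and NK cell genes at 1.21, while the medians over all genes lie between -0.05 and 0.02.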

How the data were processed

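Total RNA of 12 bladders was labelled with Cy3 and read on 1-colour Agilent arrays, per the labels' protocols. The deposited values are spot intensities from Agilent Feature Extraction 10.7 (per the submitters' processing notes), background-subtracted by the authors' scanner software and not scaled between arrays, per the file headers. The deposited series table equalled the processed signal in 100% of 755712 spots (relative tolerance 1e-06) and was not used further.

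Levels were log2 processed signal minus log2 75th percentile of the 58717 non-control spots of the array, which was 3993 to 4892. Outlier spots were dropped, save for 91 averages with nothing else to use. Spots were averaged per probe. A probe had to be well above background in each of the 4 animals of some group (23089 probes), and the brightest probe on average represented its gene (20425, of which 12036 had a symbol). Names came from the RefSeq accession of a probe through a GRCr8 table, which named 59.3% of probes. limma 3.58 in R 4.3 was fitted to all 12 arrays (eBayes with a trend, two-sided, Benjamini-Hochberg adjustment, threshold 0.05), and was tested on simulated data. Each difference is its first-named group minus the other.

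Groups came from the labels, and the animals of a group are separate rats. The replicate numbers are running numbers and the sample titles give other animal numbers, so the replicate numbers were not taken as pairs. Same-numbered replicates correlated at -0.19 to 0.095, and replicates of different numbers were not compared. The number of arrays limits the precision. The genes and lists were chosen with earlier results of these data known. Named were all 10 genes, every ligand or partner tested, called genes of the macrophage and leukocyte lists (at most 8 per list and comparison), up to 3 called genes of each other list, and the 5 genes nearest in pattern to Ptprc and to Cd163. For some lists of other cells only counts are given. Alternatives were other scalings, normexp background correction with offset 50, other filters, every probe, outlier spots kept, no trend, 2 groups only, a replicate block and leaving out each animal. Normexp used median spot signals. The restricted rats had a slide of their own, so a slide block could not be fitted to their comparisons. The age comparison lies within 1 slide, but across array rows.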

Additional observations from a re-analysis of the deposited data

Results flagged for a closer look

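In 36 groups of 4 values (12 probes in 3 groups) 1 animal stood far from the others of its group. For the single-spot probe of Csf1r, old fed replicate 2 read -2.17 against -2.47 to -2.53 in the other old fed rats, a gap of 0.843 of the group's range. Chance marks about 1 in 20 such groups.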

How the results depend on the processing

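The count of the 10 genes that passed with age was 4, and it was 5 with quantile scaling, median centring, no filter, the filter on all 12 arrays and every probe, 4 with outlier spots kept, 3 with normexp under either scaling, 2 without the trend, 0 on the 2 groups alone and 0 to 6 when each animal was left out. For restriction the count was 1, and it was 2 with normexp and quantile scaling, 0 without the filter, without the trend and on the 2 groups alone, and 0 to 2 over the animals left out. For old restricted against young fed rats it was 1, and it was 2 on the 2 groups alone and 0 to 2 over the animals left out. With the replicate number as a replicate block 1 gene passed in each comparison: Gpnmb with age, without Ptprc, Laptm5 and Itgb2, Gpnmb with restriction, in place of Cd53, and Cx3cr1 between old restricted and young fed rats. With that block 498 of all genes passed with age in place of 760. The other settings kept the counts within 1.5 times.

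Over all genes 760 passed with age, and 462 did with normexp and quantile scaling, 3568 without the filter, 440 without the trend, 94 on the 2 groups alone and 121 to 922 over the animals left out. With restriction 744 passed, and 477 did on the 2 groups alone and 268 to 847 over the animals left out. Between old restricted and young fed rats 1874 passed, and 3259 did without the filter and 742 to 2079 over the animals left out. Of the genes that passed with age 43.7% were higher, and 58.3% with quantile scaling, 53.7% with median centring 57.4% with normexp and quantile scaling, 19.4% without the filter, 71.3% on the 2 groups alone and 31.1% to 68.1% over the animals left out. With restriction 44.5% were higher, and 64.1% with normexp.

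The 10 reversed values were small and did not pass the test. They were Cd68 between old restricted and young fed rats (-0.126 to 0.081 over the animals left out), and with restriction Cd163 (-0.36 to 0.13), Csf1r (-0.149 to 0.093) and Mrc1 (-0.11 to 0.18). The last was the single-spot Csf1r probe with age, at -0.03 with normexp, -0.016 with normexp and quantile scaling and -0.07 to 0.049 over the animals left out. The cause of these moves was not tested. No slide block was run, for the reason given above. The list values without old fed replicate 2, the use of median signals in normexp and the alternatives for the other probes of Ptprc and Csf1r were chosen after seeing the data.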
